A study of Mus musculus with 9 samples.

Results

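Mitochondrial fatty acid oxidation and its regulators were followed as 32 genes in injured mouse muscle, chosen by symbol from a list of carnitine shuttle proteins, dehydrogenases, electron carriers, hydratases, thiolase, auxiliary enzymes and controlling factors. All 32 were found among the 54532 genes of the table, and all 32 passed the filter on low values that left 14233 genes for testing. The libraries came from the tibialis anterior, a muscle at the front of the lower leg, taken after injury. There were 3 groups of 3 libraries, numbered 1 to 3 in each. They came from wild-type mice aged 4 to 6 months (young), wild-type mice aged 24 months (old) and mice labelled old that lack P311 (P311-/-, gene symbol Nrep). All 3 groups were injured, and an uninjured muscle was not analysed here. The sources used here do not give the kind of injury, the time since injury, the strain, how the deletion was made or how many months old the P311-/- mice were. Nor do the labels say whether the libraries of a group came from separate animals, so a p-value here reflects only the spread among these libraries, which may be technical.

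Fatty acids are activated to acyl-CoA in the cytosol and carried into mitochondria as carnitine esters. Acyl-CoA dehydrogenases, a hydratase, a hydroxyacyl dehydrogenase and a thiolase then shorten the chain round by round, while electron transfer flavoprotein passes electrons from the dehydrogenases to the respiratory chain. Muscle fibres depend on this route at rest and in endurance work, and the nuclear receptors PPARα and PPARδ with the coactivator PGC-1α raise transcription of many of its enzymes.

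Recovered reads per library ranged from 14222204 to 31910890. Levels are in FPKM, which divides reads by the length of the gene and by a library size that the authors scaled. Comparisons between different genes depend on the deposited lengths and on exons shared with other genes. The deposited length was 4300 bases for Cpt1a and 1091 for Eci1, against 7642 and 2127 exonic bases in the GENCODE M21 annotation. Nrep, the deleted gene, was listed at 14.8, 6.37 and 9.72 FPKM in old P311-/- against 63.9 to 86.3 and 71.4 to 83.1 in young and old wild type, so all 3 libraries labelled P311-/- lay below all others. The 12 markers of skeletal muscle fibres summed to at least 49199.8 FPKM in every library, and 3 of 4 cardiac markers were under 0.5 FPKM throughout. Old P311-/- replicate 1 stood apart from the other two of its group. Its 8 macrophage markers summed to 1580.0 FPKM against 678 and 929 in replicates 2 and 3, and its 6 fibroblast markers to 1235 against 639 and 724. These sums were 1458 to 2270.1 and 1449 to 1575 in young wild type, and 1188 to 1734 and 1016 to 1219.8 in old wild type. In RNA from whole muscle, fewer cells of a type and less RNA per cell cannot be told apart. Results that rest on replicate 1 are given with and without it.

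The 32 genes ranged from under 1 FPKM to over 100. Acadl, which encodes the long-chain acyl-CoA dehydrogenase, had the highest level in every group, at 112 ± 14.9, 158 ± 9.61 and 167 ± 34.5 FPKM (SD, n = 3) in the young, old and old P311-/- groups in turn, and supplied 11.7% to 15.6% of the summed level of the 32 genes. Acaa2, a mitochondrial thiolase, followed in young wild type at 97.5, 95.0 and 89.8 FPKM, below the lowest Acadl library there. In old wild type Acaa2 (108 to 110.4) and Etfa (104 to 109) overlapped in second place. At the other end, Cpt1b, Acad10 and Ppara had means of at most 1.28 FPKM in young and old wild type. The map of all 32 genes by library shows many rows shaded alike within a column.

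**Figure D1:**
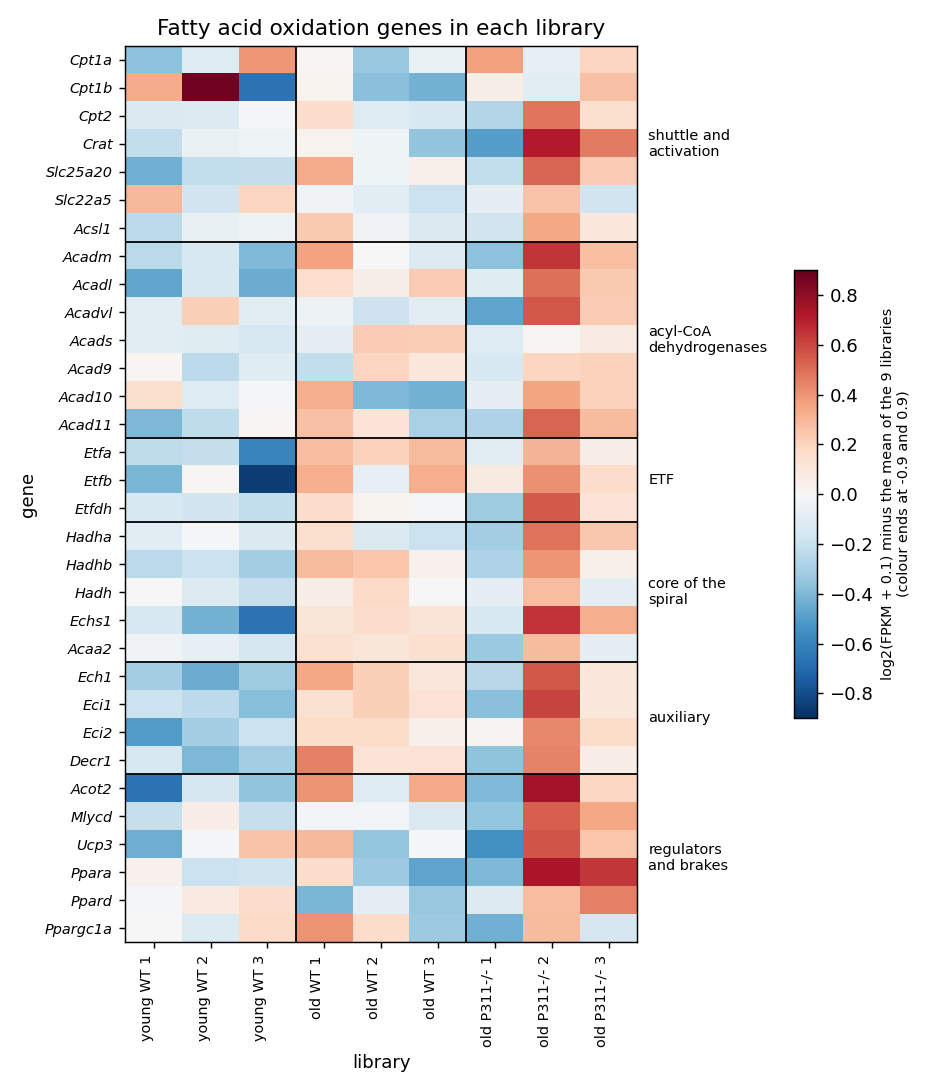
Level of each of the 32 genes (rows, grouped by role) in each of the 9 libraries (columns), as log2(FPKM + 0.1) minus the mean of that gene over the 9 libraries, with colours ending at -0.9 and 0.9. Old P311-/- replicate 2 is the highest of its group in 27 of 32 genes and old P311-/- replicate 1 the lowest in 28 of 32.

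Carnitine palmitoyltransferase 1 makes the carnitine esters at the outer mitochondrial membrane, and Cpt1b is known as its muscle form and Cpt1a as its liver form. In these libraries Cpt1a was the higher of the pair in all 9, by 4.99 to 24.3 times. Cpt1a stood at 5.57, 6.64 and 9.48 FPKM in young wild type, 7.27, 5.68 and 6.90 in old wild type and 9.35, 6.84 and 8.24 in old P311-/-. Cpt1b stood at 0.881, 1.33 and 0.390 FPKM in young wild type, 0.697, 0.501 and 0.479 in old wild type and 0.707, 0.630 and 0.834 in old P311-/-, from 26 to 85 reads per library. The groups overlapped for both genes. For Cpt1b, 81.4% of the exonic bases are shared on the same strand with the read-through gene Gm44502, which was listed at 0 in all 9 libraries, and the sources used here do not say how reads in shared exons were counted. The level of Cpt1b and its ratio to Cpt1a therefore carry that limit. The ratio also depends on the deposited length of Cpt1a, 4300 bases against 7642 exonic bases, since a shorter length gives a higher FPKM. Etfb shares 58.2% of its exonic bases with Gm45233 on the same strand, also listed at 0 in all libraries, and Acadvl shares 42.9% with Dvl2 on the opposite strand, which stood at 1.17 to 1.96 FPKM. No other member shared more than 9.91% of its exonic bases with another gene.

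Old and young wild type were compared to see how these genes differ with age in injured muscle. Etfa, the alpha subunit of electron transfer flavoprotein, rose, and was the only 1 of the 32 called at an adjusted p under 0.05, where 5.40% of all genes tested (768) were called. Of the 768, 482 (62.8%) were higher in old wild type, and with libraries scaled to equal read totals 96 of 346 (27.7%) were. Without 1 library that number ran from 0, without young replicate 3 or old replicate 2, to 1755, without old P311-/- replicate 1. On the log2 scale 24 of 32 differences were above 0, against 50.4% of all genes, with a median of 0.20 against 0.005 over all genes. In 14 of 32 genes all 3 old libraries lay above all 3 young ones, against 19.0% of all genes, and in 1, Ppard, all lay below, against 18.1% of all genes. An unadjusted p under 0.05 was reached by 8 of 32, against 26.3% of all genes, so the share in both directions together was near the background. All 8 were higher in old wild type, where 1984 of the 14233 genes tested were higher and 1764 lower at that threshold. The direction was shared by more of the list than of the table, while the sizes stayed small: the differences ran from -0.44 for Cpt1b to 0.61 for Etfb. The median depended on the scaling: under equal read totals the median of all genes moved to -0.12 and that of the 32 genes to 0.07, with 19 above 0, a distance of 0.19 between them. Marker sums moved with age too. The 12 muscle fibre markers summed to 49199.8 to 54146 FPKM in young and 57387 to 69262 in old wild type, without overlap, although the 1 called marker of that list, Myh1, a fast myosin heavy chain, fell, with a log2 fold change of -1.01 (SE 0.21, adjusted p = 0.0363). The sum of the 6 fibroblast markers was lower in all 3 old libraries, and its 1 called marker, the collagen gene Col1a1, fell, with a log2 fold change of -1.04 (SE 0.24, adjusted p = 0.0436). Lum, another of the 6, was instead at 149 to 177 FPKM in old against 109.7 to 128 in young wild type. The macrophage sums overlapped. Their part in the differences of the 32 genes was not tested.

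**Figure D2:**
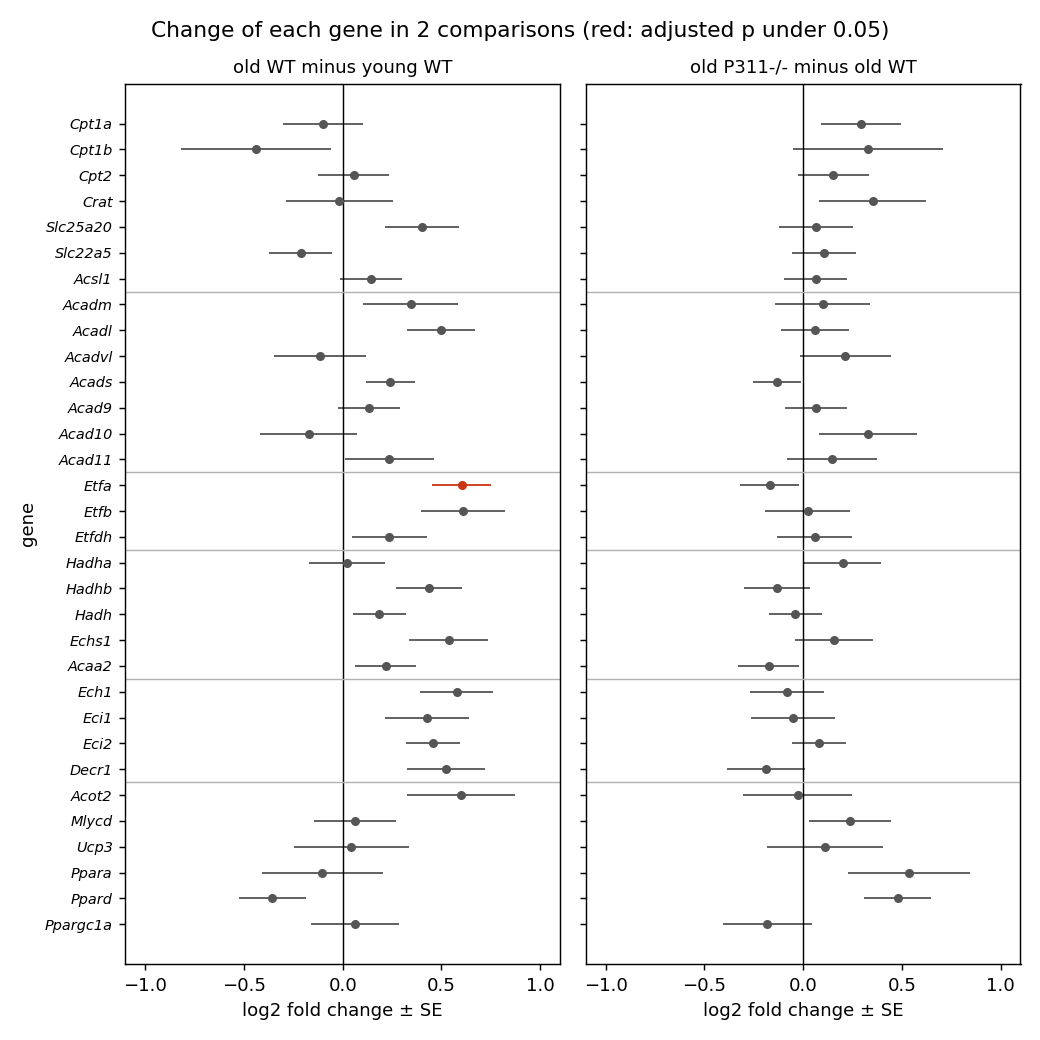
Log2 fold change with its standard error for each of the 32 genes in old against young wild type (left) and old P311-/- against old wild type (right), with horizontal lines between the role groups. On the left 24 points lie above 0 and Etfa alone is red for an adjusted p under 0.05, while on the right 22 lie above 0 and none is red.

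Electron transfer flavoprotein is a dimer of the Etfa and Etfb products that takes electrons from the acyl-CoA dehydrogenases, and Etfdh encodes the membrane enzyme that passes them to ubiquinone. Etfa (ENSMUSG00000032314, chr9:55454508-55512243 on GRCm38, minus strand) stood at 76.4, 77.3 and 59.3 FPKM in young wild type, 109, 104 and 109 in old wild type and 83.5, 111 and 93.3 in old P311-/-. All 3 old wild-type libraries lay above all 3 young ones. Old P311-/- replicates 1 and 3 lay between these groups and replicate 2 above both. The group means were 71.0 ± 10.2 and 107 ± 3.08 FPKM (SD, n = 3) in young and old wild type, a log2 fold change of 0.60 (SE 0.15, adjusted p = 0.0497). That call sat at the threshold: of 20 other settings 8 kept it, with adjusted p from 0.0162 to 0.342. With the trend of gene length and GC content removed the log2 fold change was 0.31 (adjusted p = 0.342). It was lost when any 1 of the 6 wild-type libraries or old P311-/- replicate 3 was left out (adjusted p up to 0.157), and held without old P311-/- replicate 1 (0.0248) or 2 (0.0422). Etfb stood at 11.7, 15.8 and 8.65 FPKM in young wild type, 19.7, 14.9 and 19.7 in old wild type and 16.6, 20.9 and 17.5 in old P311-/-. Its young and old wild-type libraries overlapped, with old replicate 2 inside the young range, and the log2 fold change of 0.61 (SE 0.21, adjusted p = 0.113) did not pass. For Etfdh the old libraries, at 15.8 to 17.8 FPKM, lay above the young ones at 13.7 to 14.5, with a log2 fold change of 0.24 (SE 0.19, adjusted p = 0.459).

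RefSeq windows from 250 bases before to 50 bases after a transcription start (GRCm38.p6) were at hand for 27 of the 32 genes, in 28 windows. The 6 short motifs below were searched on both strands. The NRF1 core GCGCATGC, a sequence bound by nuclear respiratory factor 1, was in 5 of 28 windows (17.9%), those of Acad10, Acadm, Etfa, Etfdh and Ppara, and in 2.71% of all 32851 windows. The estrogen-related receptor element TNAAGGTCA was in none of the 28 windows and in 1.28% of all, and a direct repeat of AGGTCA with 1 base between in none and in 0.0396% of all. The AGGTCA half-site, which is part of both of these, was in 17.9% and 16.3%, the YY1 core AAGATGGC in 7.14% and 2.75%, and the CCAAT box in 39.3% and 37.4%. The bases before the start are shown for Etfa, the gene that passed the test, and for Acadm, both with the NRF1 core in capitals as a match on 1 of the strands, and for Acadl, the most abundant gene, whose window has no match. In Etfa (chr9:55512244-55512493, minus strand) the match runs from -105 to -98 from the start and in Acadm (chr3:153944644-153944893, minus strand) from -158 to -151. The Acadl window is chr1:66863310-66863559, minus strand. A match is a description of letters and was not tied to any level here.
Etfa: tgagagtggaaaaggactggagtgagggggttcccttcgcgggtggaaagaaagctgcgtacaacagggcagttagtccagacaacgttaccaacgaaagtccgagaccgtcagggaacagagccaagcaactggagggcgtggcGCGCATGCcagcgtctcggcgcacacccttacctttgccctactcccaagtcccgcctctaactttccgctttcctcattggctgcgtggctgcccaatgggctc
Acadm: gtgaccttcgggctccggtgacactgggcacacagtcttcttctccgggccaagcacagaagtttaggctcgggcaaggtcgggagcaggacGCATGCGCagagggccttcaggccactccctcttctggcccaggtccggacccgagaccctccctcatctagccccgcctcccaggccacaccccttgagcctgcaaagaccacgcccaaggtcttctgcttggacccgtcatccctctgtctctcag
Acadl: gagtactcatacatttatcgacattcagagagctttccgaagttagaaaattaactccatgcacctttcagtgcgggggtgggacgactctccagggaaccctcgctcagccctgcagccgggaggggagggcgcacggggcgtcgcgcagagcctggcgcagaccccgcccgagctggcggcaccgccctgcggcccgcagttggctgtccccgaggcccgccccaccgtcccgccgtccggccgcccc

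Among the 7 acyl-CoA dehydrogenases, which open each round of chain shortening, 5 differences between old and young wild type were above 0 and none passed, with a median of 0.24. Acadl stood at 103, 129 and 104 FPKM in young wild type, 158, 148 and 167 in old wild type and 132, 201 and 167 in old P311-/-. All 3 old wild-type libraries and all 3 old P311-/- libraries lay above the 3 young ones, and the old against young log2 fold change was 0.50 (SE 0.17, adjusted p = 0.105), or 0.23 with the length and GC trend removed. Acadm, the medium-chain enzyme, stood at 49.8, 53.1 and 44.5 FPKM in young wild type, 75.7, 59.0 and 53.8 in old wild type and 45.5, 91.8 and 70.9 in old P311-/-. Its old wild-type libraries lay above the young ones by little, from 53.8 against at most 53.1 FPKM, and the log2 fold change was 0.34 (SE 0.24, adjusted p = 0.388). Acadvl, the very-long-chain enzyme of the inner membrane, stood at 42.0, 51.9 and 41.9 FPKM in young wild type, 43.5, 39.5 and 41.8 in old wild type and 32.2, 66.2 and 52.6 in old P311-/-. Here the young and old wild-type libraries overlapped, with a log2 fold change of -0.12 (SE 0.23, adjusted p = 0.784). Acads, the short-chain enzyme, was at 39.2 to 40.6 FPKM in young and 41.0 to 50.8 in old wild type, without overlap, with a log2 fold change of 0.24 (SE 0.12, adjusted p = 0.241). Acad9, Acad10 and Acad11, related enzymes at lower levels, stood under or at 6.58 FPKM in all libraries. Acad10 stood at 1.28, 1.05 and 1.14 FPKM in young wild type, 1.47, 0.845 and 0.832 in old wild type and 1.09, 1.50 and 1.34 in old P311-/-, with overlapping groups and a log2 fold change of -0.17 (SE 0.25, adjusted p = 0.691).

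In the core of the spiral, the 5 genes for hydratase, hydroxyacyl dehydrogenase and thiolase steps all had differences above 0 in old against young wild type, with a median of 0.22, and none passed. Echs1, the short-chain enoyl-CoA hydratase, had the largest difference. It stood at 10.8, 8.94 and 7.56 FPKM in young, 12.9, 13.4 and 13.0 in old wild type and 10.9, 19.0 and 15.1 in old P311-/-. The lowest old wild-type library exceeded the highest young one, and the log2 fold change was 0.54 (SE 0.20, adjusted p = 0.129). Hadha and Hadhb encode the alpha and beta subunits of the trifunctional protein, which carries out the last 3 steps on long chains. Hadhb stood at 33.6, 34.8 and 32.2 FPKM in young wild type, 48.4, 47.5 and 40.8 in old wild type and 32.8, 52.5 and 41.0 in old P311-/-, without overlap of young and old wild type and with a log2 fold change of 0.44 (SE 0.17, adjusted p = 0.139). Hadha stood at 33.2, 35.4 and 32.7 FPKM in young wild type, 39.5, 32.6 and 31.1 in old wild type and 28.8, 50.0 and 42.3 in old P311-/-. Its groups overlapped, with a log2 fold change of 0.02 (SE 0.19, adjusted p = 0.959). Acaa2 was at 89.8 to 97.5 FPKM in young and 108 to 110.4 in old wild type, without overlap and with a log2 fold change of 0.22 (SE 0.15, adjusted p = 0.397). Hadh, for the hydroxyacyl step on short chains, was at 25.0 to 28.8 FPKM in young and 28.8 to 32.6 in old wild type, which overlapped.

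The 4 auxiliary enzymes, which move or remove double bonds so that unsaturated chains can be shortened, had log2 fold changes of one sign. In all 4 the old wild-type libraries lay above the young ones, against 19.0% of all genes, with log2 fold changes from 0.43 to 0.58 and a median of 0.49, yet none passed. Ech1, a dienoyl-CoA isomerase, stood at 56.1, 50.8 and 55.4 FPKM in young wild type, 88.1, 80.2 and 74.1 in old wild type and 58.3, 102 and 74.4 in old P311-/-. Young wild type was tight, at 50.8 to 56.1 FPKM, and lay below every old wild-type and old P311-/- library, and the log2 fold change of old against young was 0.58 (SE 0.19, adjusted p = 0.0933). Eci2, an enoyl-CoA isomerase, stood at 6.41, 7.35 and 7.97 FPKM in young wild type, 10.2, 10.2 and 9.43 in old wild type and 9.25, 12.3 and 10.3 in old P311-/-. All 6 libraries of old mice lay above the young ones, with an old against young log2 fold change of 0.46 (SE 0.14, adjusted p = 0.0757). Decr1, the dienoyl-CoA reductase, stood at 21.0, 17.5 and 18.6 FPKM in young wild type, 31.9, 25.2 and 25.4 in old wild type and 18.1, 31.7 and 24.1 in old P311-/-, with an old against young log2 fold change of 0.52 (SE 0.20, adjusted p = 0.133). Eci1, the other isomerase, went from 67.6 ± 4.55 to 90.8 ± 2.92 FPKM (SD, n = 3), a log2 fold change of 0.43 (SE 0.21, adjusted p = 0.232). Without old P311-/- replicate 1, which is in neither group and enters only through the spread estimated over all 9 libraries, 7 of the 32 genes passed, against 12.3% of all genes: Etfa, Acadl, Ech1, Hadhb, Decr1, Echs1 and Eci2, with adjusted p from 0.0248 to 0.0479. All 7 were higher, while the calls over all genes were 1033 higher and 722 lower.

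The 7 genes of the carnitine shuttle and fatty acid activation had 3 differences above 0 and 4 below in old against young wild type, a median of -0.02 and none past the test. Slc25a20, the carrier that exchanges acylcarnitine for carnitine across the inner membrane, was the 1 gene of these without overlap. It stood at 8.46, 9.79 and 9.85 FPKM in young wild type, 14.4, 11.1 and 11.8 in old wild type and 9.80, 16.5 and 13.4 in old P311-/-, an old against young log2 fold change of 0.40 (SE 0.19, adjusted p = 0.207). Slc22a5, the carnitine importer of the cell membrane, stood at 5.87, 4.23 and 5.47 FPKM in young wild type, 4.65, 4.46 and 4.16 in old wild type and 4.50, 5.70 and 4.20 in old P311-/-, with overlapping groups and a log2 fold change of -0.21 (SE 0.16, adjusted p = 0.430). Cpt1a and Cpt1b had log2 fold changes of -0.10 (SE 0.20, adjusted p = 0.789) and -0.44 (SE 0.38, adjusted p = 0.494). Cpt2, which returns acylcarnitine to acyl-CoA, Crat, the acetyl-group transferase, and Acsl1, which activates long-chain fatty acids, had log2 fold changes of 0.06, -0.02 and 0.14.

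Of the 6 regulators and brakes none passed between old and young wild type, with a median of 0.05. Ppard, the gene of PPARδ, was the only 1 of the 32 with all old wild-type libraries below all young ones. It stood at 3.30, 3.54 and 3.72 FPKM in young wild type, 2.48, 3.15 and 2.60 in old wild type and 3.05, 4.05 and 4.60 in old P311-/-, an old against young log2 fold change of -0.36 (SE 0.17, adjusted p = 0.215). Ppara, the gene of PPARα, stood at 1.43, 1.20 and 1.21 FPKM in young wild type, 1.56, 1.09 and 0.971 in old wild type and 1.02, 2.38 and 2.21 in old P311-/-. Ppargc1a, the gene of PGC-1α, stood at 5.56, 5.08 and 6.25 FPKM in young wild type, 7.37, 6.21 and 4.39 in old wild type and 4.08, 6.76 and 4.97 in old P311-/-. For both the wild-type groups overlapped, with log2 fold changes of -0.10 (SE 0.31, adjusted p = 0.858) for Ppara and 0.06 (SE 0.22, adjusted p = 0.883) for Ppargc1a. Ucp3, a mitochondrial carrier of muscle that fatty acids are known to induce, stood at 26.2, 35.1 and 42.5 FPKM in young wild type, 43.6, 28.0 and 35.2 in old wild type and 24.4, 52.7 and 42.3 in old P311-/-. Its young libraries alone spanned 26.2 to 42.5 FPKM, and the log2 fold change was 0.04 (SE 0.29, adjusted p = 0.941). Acot2, a thioesterase that releases fatty acid from acyl-CoA in mitochondria, was at 3.73 to 5.37 FPKM in young and 5.50 to 7.91 in old wild type without overlap, with a log2 fold change of 0.60 (SE 0.27, adjusted p = 0.201). Mlycd, which removes malonyl-CoA, the inhibitor of carnitine palmitoyltransferase 1, had a log2 fold change of 0.06 (SE 0.21, adjusted p = 0.873).

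**Figure D3:**
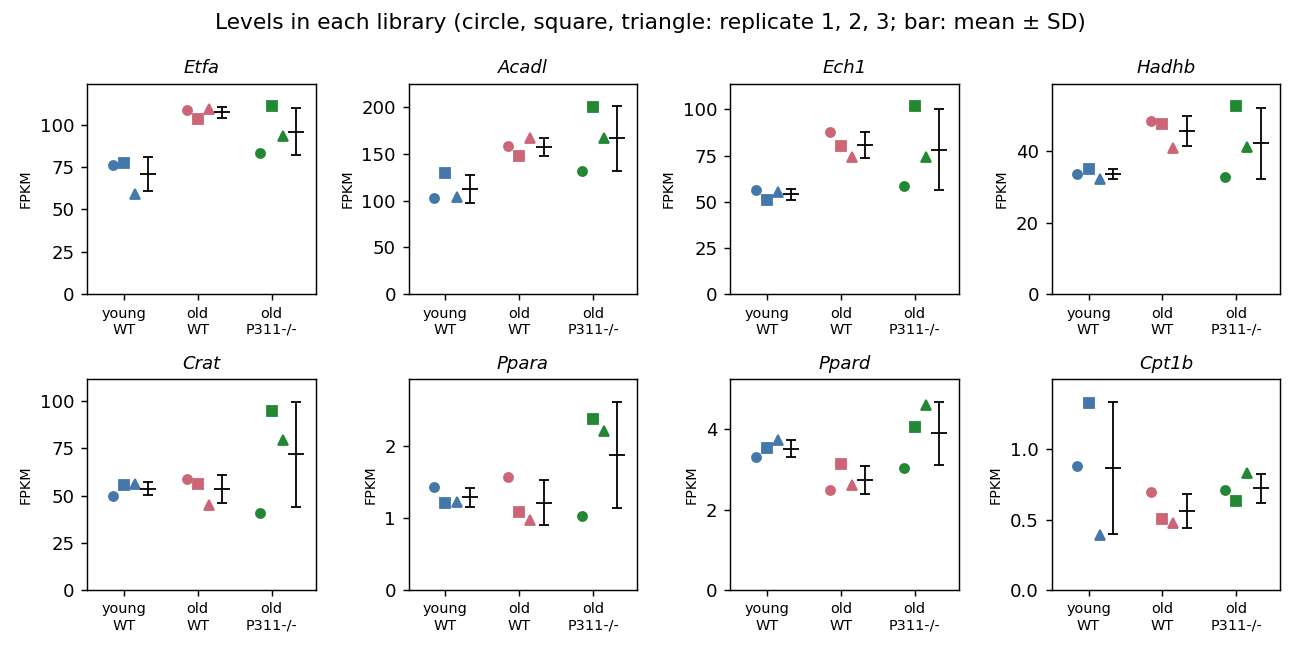
Level in FPKM (vertical axes from 0) of 8 of the genes in each library, with circles, squares and triangles for replicates 1, 2 and 3 and bars for the mean ± SD of each group. For Etfa, Acadl, Ech1 and Hadhb the old wild-type points lie above the young ones, and for Crat and Ppara old P311-/- replicates 2 and 3 lie above all wild-type points while replicate 1 is below the wild-type points for Crat and among them for Ppara.

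The comparison of old P311-/- with old wild type asks what loss of P311 changes at old age. None of the 32 genes was called, where 0.0703% of all genes tested were called. An unadjusted p under 0.05 was reached by 1 gene, Ppard, against 16.1% of all genes. Differences above 0 numbered 22 of 32, against 49.6% of all genes, with a median of 0.07 against -0.004. No gene of the 32 separated the groups without overlap in either direction. Of all 14233 genes tested, 1230 (8.64%) did with old P311-/- above and 1337 with old P311-/- below. The range was -0.19 for Decr1 to 0.54 for Ppara. By role, the shuttle and activation genes had all 7 differences above 0 (median 0.15), the dehydrogenases 6 of 7 (0.10) and the regulators 4 of 6 (0.17), while the hydratase and thiolase group had 2 of 5 (-0.04) and the auxiliary enzymes 1 of 4 (-0.07).

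Within old P311-/- the 3 libraries spread widely and in the same order for most genes. Replicate 1 was the lowest of the 3 in 28 of 32 genes, against 40.3% of all genes, and the exceptions were Cpt1a, Cpt1b, Slc22a5 and Hadh. Replicate 2 was the highest in 27 of 32, against 34.3%. The summed level of the 32 genes was 860.2 FPKM in replicate 1, 1418 in replicate 2 and 1142 in replicate 3. The old wild-type sums were 1163, 1077 and 1073 FPKM and the young ones 879, 933 and 860.0 FPKM, so replicate 1 sat at the young level and replicate 2 above every wild-type library. The 20 mitochondrial content genes, such as citrate synthase and respiratory chain subunits, moved alongside, at 3567, 5326 and 4342 FPKM in the 3 old P311-/- libraries, 4559.7, 4600.3 and 4531 in old and 4189.5, 3959.9 and 3518 in young wild type. The ratio of the 32 genes to these was 0.241, 0.266 and 0.263 in old P311-/-, 0.255, 0.234 and 0.237 in old and 0.210, 0.236 and 0.245 in young wild type. The muscle fibre marker sum ran in the same order, at 56424, 68728 and 62179 FPKM. Not all markers of that list did: Mylpf and Casq1 were highest in replicate 1, Myh1, Myh2 and Des were highest in replicate 3, and Pvalb was lowest in replicate 3. The macrophage and fibroblast sums ran the other way, highest in replicate 1 and lowest in replicate 2. Erythroid markers summed to 836, 300 and 344 FPKM in old P311-/- and to 971, 149 and 146 in old wild type. The part of these in the levels of the 32 genes was not tested. Replicate 1 also had the highest adipocyte marker sum, 183 FPKM against 39.4 to 113 in the other 8 libraries.

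**Figure D4:**
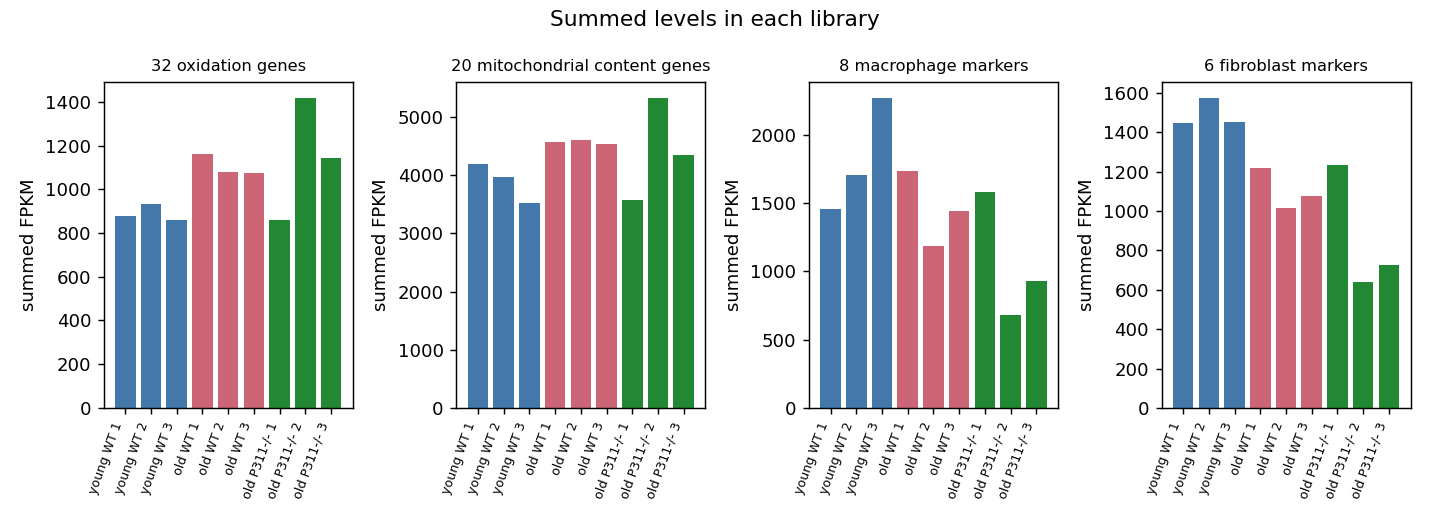
Summed FPKM (vertical axes from 0) of the 32 genes, 20 mitochondrial content genes, 8 macrophage markers and 6 fibroblast markers in each of the 9 libraries. Old P311-/- replicate 2 has the highest sum of the 32 genes, 1418 FPKM, and the lowest macrophage sum, 678 FPKM.

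Ppara, Ppard and Crat showed the split in single genes. Ppara was at 1.02, 2.38 and 2.21 FPKM in old P311-/-: replicate 1 lay within the old wild-type range of 0.971 to 1.56, and replicates 2 and 3 above all 6 wild-type libraries. Its log2 fold change was 0.54 (SE 0.31, adjusted p = 0.401). Ppard was at 3.05, 4.05 and 4.60 FPKM, with replicate 1 inside and replicates 2 and 3 above the old wild-type range of 2.48 to 3.15. Its log2 fold change was 0.48 (SE 0.17, adjusted p = 0.266). Crat, which buffers the acetyl-CoA pool, was at 41.0, 94.9 and 79.7 FPKM, with replicate 1 below and the others above the old wild-type range of 45.0 to 59.0, a log2 fold change of 0.35 (SE 0.27, adjusted p = 0.528). Ppargc1a stood at 4.08, 6.76 and 4.97 FPKM, overlapping old wild type, with a log2 fold change of -0.18 (SE 0.22, adjusted p = 0.707).

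Leaving out old P311-/- replicate 1, the lowest of its group in 28 of 32 genes, left only replicates 2 and 3 there. Against old wild type 5 of the 32 genes (15.6%) then passed, near the 13.2% of all genes. All 5 were higher, as were 52.9% of all genes called. The 5 genes were Crat (log2 fold change 0.71, adjusted p = 0.0185), Ppard (0.64, 0.0268), Mlycd (0.50, 0.032), Ppara (0.90, 0.0339) and Acadvl (0.51, 0.0498). The median of the 32 genes was then 0.24, with 28 above 0, and all-gene calls went from 10 to 1875. Without replicate 2 the median was -0.07, with 9 above 0 and none called. The direction of the median thus rested on which old P311-/- libraries were included. The genes of smallest p among those below 0 were Decr1, Acaa2, Etfa and Acads, with log2 fold changes of -0.19 (SE 0.20, adjusted p = 0.652), -0.17 (SE 0.15, adjusted p = 0.583), -0.17 (SE 0.15, adjusted p = 0.584) and -0.13 (SE 0.12, adjusted p = 0.600). For Acaa2, at 79.4, 122 and 94.3 FPKM in old P311-/-, replicates 1 and 3 lay below and replicate 2 above the old wild-type range of 108 to 110.4. Acads, at 40.0, 43.8 and 45.7 FPKM, overlapped the old wild-type range of 41.0 to 50.8. Acadl, Acadm, Acadvl, Ucp3, Cpt1a and Cpt1b had log2 fold changes of 0.06, 0.10, 0.21, 0.11, 0.29 and 0.33, with adjusted p from 0.482 to 0.879.

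Old P311-/- was also set against young wild type, which shares the old P311-/- libraries with the preceding comparison and the young ones with the first. No gene of the 32 was called, where 0.400% of all genes were. Differences above 0 numbered 29 of 32, against 51.6% of all genes, with a median of 0.30 against 0.01. An unadjusted p under 0.05 was reached by 7, against 21.4% of all genes in both directions together. All 7 were higher, where 1549 of the 14233 genes tested were higher and 1502 lower. Above young wild type without overlap lay 6, against 11.6%. These 6 were Acadl, Etfa, Etfb, Ech1, Echs1 and Eci2, which code for the long-chain dehydrogenase, both flavoprotein subunits, the hydratase and 2 auxiliary isomerases. Their log2 fold changes ran from 0.43 for Etfa to 0.69 for Echs1, with adjusted p from 0.104 to 0.178. The 3 genes below 0 were Ppargc1a, Slc22a5 and Cpt1b, at -0.12 (SE 0.22, adjusted p = 0.792), -0.11 (SE 0.16, adjusted p = 0.728) and -0.11 (SE 0.38, adjusted p = 0.894). Without old P311-/- replicate 1, 16 of the 32 passed, all higher, and the median was 0.49. Of all genes 19.6% passed in both directions together, 1473 higher and 1312 lower. Echs1 was the largest of these, with a log2 fold change of 0.90 and adjusted p = 0.0079, and Acot2 (0.86), Ppara (0.80), Acadm (0.72) and Acadl (0.72) came next. Without replicate 2 the median was 0.12 and without replicate 3 it was 0.22, with none called in either.

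Genes that work beside the 32 were read from other lists. A further list held 23 other genes of fatty acid, ketone body and branched-chain metabolism and related steps, not all of them mitochondrial breakdown enzymes. Of the 22 tested, 3 rose in old against young wild type and none fell, with a median of 0.35. The share called over all genes was 5.40%, which is the background for this and the next lists, and with 12 to 31 genes a list a single call is near it. Acsl6, an acyl-CoA synthetase, went from 3.48, 3.13 and 3.11 FPKM in young to 4.84, 6.84 and 7.58 in old wild type, a log2 fold change of 0.94 (SE 0.19, adjusted p = 0.0340). Acot13, a thioesterase, went from 79.8 ± 3.92 to 130.1 ± 22.5 FPKM (SD, n = 3), a log2 fold change of 0.69 (SE 0.17, adjusted p = 0.0467). Hibch, of valine breakdown, had a log2 fold change of 0.60 (SE 0.13, adjusted p = 0.0356). Of 17 peroxisomal genes tested (21 listed), 1 rose, Scp2, a thiolase and sterol carrier, at a log2 fold change of 0.55 (SE 0.12, adjusted p = 0.0365), with a median of 0.15. Of 12 PPAR target genes outside oxidation tested (13 listed), 1 rose, Cd36, the fatty acid transporter of the cell membrane, at a log2 fold change of 1.05 (SE 0.18, adjusted p = 0.0307), with a median of 0.27. The 20 mitochondrial content genes had no call and all 20 differences above 0, with a median of 0.24, close to the 0.20 of the 32 oxidation genes. All 3 old wild-type libraries lay above all 3 young ones in 43.8% of the 32 genes and 19.0% of all genes. The share was 55.0% of the 20 mitochondrial content genes, 54.5% of the 22, 47.1% of the 17 peroxisomal genes and 41.7% of the 12 PPAR target genes. Among 31 other regulators it was 16.1%.

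Among other regulators of oxidation, Ppargc1b fell and Tfam rose in old against young wild type. Ppargc1b, the gene of the related coactivator PGC-1β, stood at 5.97, 6.09 and 5.02 FPKM in young wild type, 1.98, 2.42 and 2.45 in old wild type and 3.38, 2.51 and 3.50 in old P311-/-. Every old wild-type library was at or below 2.45 FPKM and every young one at 5.02 FPKM or more, a log2 fold change of -1.28 (SE 0.16, adjusted p = 0.0246). Tfam, which maintains mitochondrial DNA, had a log2 fold change of 0.49 (SE 0.11, adjusted p = 0.0399). Each of the 7 calls named from these lists was lost without any 1 of the young wild-type libraries and without old wild-type replicate 2 or 3, and under some other settings, with adjusted p up to 0.186. The direction of all 7 held in all 20 settings. It could not turn where only the filter, the replicate block or the old P311-/- libraries differed, since the fold change is then the same. In both comparisons of old P311-/- none of the genes in these 5 lists passed.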

How the data were processed

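The authors measured poly-A RNA by sequencing in 9 libraries, 3 per group. Per the submitters' processing notes they used HISAT2 2.2.1, featureCounts 2.1.1, DESeq2 1.42.0 and the build mm39. The sources used here do not give the options, including the use of strand, so values of overlapping genes carry that limit. The positions in the deposited table are those of GRCm38: of 54495 identifiers found also in GENCODE M21, 53585 (98.3%) had the same position there. The deposited values are FPKM from the authors, and the authors' deposited gene lengths are in bases, listed with no normalization (other). Multiplying FPKM by gene length and 1 constant per library gave whole reads within a tolerance of 0.001. These reads served for depth, the filter, total-count scaling and voom. There were 0 unused sample columns.

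A gene was tested if 3 libraries or more had 0.5 FPKM or more and 10 recovered reads or more (14233 of 54532 genes). limma 3.58.1 in R 4.3.3, with mean-variance trend and robust moderation, was fitted to log2(FPKM + 0.1) for all 9 libraries with group means, and p-values were adjusted over all genes tested by the Benjamini-Hochberg method. A call is an adjusted p under 0.05. The log2 fold change is on that scale, which understates low genes, and the SE is its standard error. SDs are over 3 libraries in FPKM. A planned test for raw counts was not used because the unit was FPKM. With 3 libraries against 3, an exact permutation test could not go below p = 0.1, so none was run. The procedure was tested on simulated data.

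The 32 genes and all other lists were chosen with earlier results of these data known. Library values are given for genes called in any comparison, for the 4 of smallest p in each direction of each comparison, and for 9 genes always shown (Cpt1a, Cpt1b, Acadl, Acadm, Acadvl, Ucp3, Ppara, Ppard and Ppargc1a). Hadhb, Hadha, Crat, Slc25a20 and the flavoprotein gene Etfdh were added after their values were seen. Genes of other lists are named where called, at most 4 per direction. A result from the list of other regulators is not reported here. The 10 marker lists covered muscle fibre, slow fibre, regenerating fibre, adipocyte, brown adipocyte, cardiac muscle, macrophage, fibroblast, endothelial and erythroid cells. Of these, 1 muscle fibre, 1 adipocyte and 1 fibroblast marker were called in old against young wild type, and 1 adipocyte marker in old P311-/- against young wild type. Start-site windows are from RefSeq (GRCm38.p6) and matched 27 of 32 genes. Alternatives changed the pseudocount (1 or 0.01), filter, scaling, replicate block, libraries fitted, library weights, test (voom), and length and GC trend (14219 genes), or left out each library.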

Additional observations from a re-analysis of the deposited data

How the results depend on the processing

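In old against young wild type the 768 genes called became 5 with no filter, 346 with total-count scaling (where the share higher was 27.7% in place of 62.8%), 1653 with only the 6 libraries compared, 2290 with library weights and 13 with the length and GC trend removed (38.5% higher). Of the 32 genes, 1 was called, and 0 were with the pseudocount 0.01, no filter, total-count scaling or the length and GC correction. With the 6 libraries 8 of the 32 were called (25%), against 11.6% of all genes. With library weights 7 were (21.9%), against 16.1% of all genes. Leaving out 1 library gave 0 to 1755 genes and 0 to 7 of the 32. In old P311-/- against old wild type the 10 genes became 6 with the 6 libraries and 2720 with library weights. Under library weights 3 of the 32 were called (Crat, Ppard and Ppara) in place of 0. That is 9.38%, below the 19.1% of all genes called in that setting. Leaving out 1 library gave 4 to 1875 genes and 0 to 5 of the 32. In old P311-/- against young wild type the 57 genes became 87 with the pseudocount 1, 23 with no filter and 98 with the stricter filter. They became 34 with total-count scaling, 12 with the 6 libraries, 3173 with library weights and 139 with voom. Under library weights 10 of the 32 were called (31.2%) in place of 0, against 22.3% of all genes. Leaving out 1 library gave 4 to 2785 genes and 0 to 16 of the 32. Beside these counts of 0, an unadjusted p under 0.05 in limma was reached by 1 and 7 of the 32 in the comparisons of old P311-/- with old and young wild type, and voom called 0 in both. The causes of these changes were not tested, beyond the fewer libraries or genes in some settings.

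The labels do not say whether the replicate numbers pair the libraries. Correlations of deviations from the group means ran from -0.10 to 0.15 between libraries of the same number. Between libraries of different numbers they ran from -0.16 to 0.21. Deviations within a group of 3 sum to 0, so these values cannot exclude a pairing. With the replicate block, 0, 4 and 5 genes were called in the order of the comparisons above, and 0 of the 32 in the first. In the first, 3386 genes had an unadjusted p under 0.05.

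The median of the 32 genes in old against young wild type kept its sign, at 0.07 to 0.24 over all settings. It could not change with no filter, with the replicate block or where only old P311-/- libraries were left out. In old P311-/- against old wild type it ran from -0.071, without old P311-/- replicate 2, to 0.24, and against young wild type from 0.12 to 0.49. Of single genes below the threshold, signs turned in old against young wild type for Acad10 (0.062) and Cpt1a (0.025) with the length and GC trend removed, for Ppargc1a with total-count scaling (-0.07) and that trend removed (-0.10), and for Ucp3 with total-count scaling (-0.09) and library weights (-0.009). Without 1 library Cpt1a ran from -0.27 to 0.11, Ppara from -0.29 to 0.027, Ppargc1a from -0.10 to 0.27 and Ucp3 from -0.14 to 0.21. In old P311-/- against old wild type Etfa turned to 0.071 with the trend removed, and without 1 library Acadl ran from -0.084 to 0.22, Acadm from -0.13 to 0.37, Acadvl from -0.014 to 0.51, Decr1 from -0.39 to 0.016 and Ucp3 from -0.13 to 0.43. Against young wild type Cpt1b turned to 0.014 with library weights and ran from -0.53 to 0.24 without 1 library, and Ppargc1a from -0.31 to 0.047. Genes near 1 FPKM rest on few reads, such as 26 to 85 per library for Cpt1b. The level of Cpt1b also carries the limit of its shared exons, and the reason for its low reads was not tested.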

Other observations

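The values here were chosen after they were seen. The 2 subunit genes of the trifunctional protein did not keep a fixed ratio: the level of Hadhb over that of Hadha was 1.01, 0.985 and 0.986 in young wild type, 1.23, 1.46 and 1.31 in old wild type and 1.14, 1.05 and 0.971 in old P311-/-. All old wild-type libraries had a higher ratio than all others.

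Klf15, a transcription factor of amino acid and lipid use in muscle, stood at 7.50, 8.24 and 7.25 FPKM in old wild type, 8.39, 19.3 and 19.2 in old P311-/- and 6.60, 6.39 and 5.15 in young wild type. Its log2 fold change between the old groups was 0.92 (SE 0.28; limma, adjusted p = 0.253), and the split between replicate 1 and replicates 2 and 3 was like that of Ppara. Pdk4, a kinase that holds back pyruvate use, spread more within young wild type (54.5, 109.8 and 219 FPKM) than between the group means of 128, 120.0 and 159 FPKM of the young, old and old P311-/- groups.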
